A study of Mus musculus with 8 samples.

Results

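The Sox genes encode transcription factors with a shared HMG box, and 10 autosomal ones were taken as a named set: Sox1, Sox2, Sox7, Sox8, Sox9, Sox10, Sox14, Sox17, Sox18 and Sox21. They are 10 of the 34324 protein-coding and lncRNA genes of the autosomes and X placed on mm10. They were picked as named members of the family, with earlier results of these data known, so the choice was not independent of their values. H3K27me3, the histone mark laid down by Polycomb repressive complex 2, was mapped by ChIP-seq in neural stem cell lines of female mice, made from E14.5 embryos of a C57BL/6 129/Castaneus mix. All lines had 1 deleted and 1 conditional (fl) allele of Smchd1, a gene for a chromatin protein of X inactivation, and all carried Xist deltaA on a maternal X of 129 origin beside a paternal Castaneus X. In del/del cells the conditional allele was removed with the retrovirus MSCV-Cre-puro, with puromycin from 24 h and harvest at 7 days. The del/fl controls were neither transduced nor selected, so deletion cannot be told apart from transduction and selection. There were 2 libraries per genotype. The labels do not say which of them share an embryo line, so a p-value here reflects no more than how these libraries vary. The deletion itself was not checked in these data.

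Polycomb repressive complex 2 marks nucleosomes over CpG-rich promoters of developmental regulators in cells that do not use them, and the marked stretch often runs well past the gene. Sox proteins fall into subgroups with related HMG boxes and overlapping roles. SoxB1 proteins (Sox1, Sox2) keep neural progenitors undifferentiated, SoxB2 proteins (Sox14, Sox21) act in neuronal differentiation, SoxE proteins (Sox8, Sox9, Sox10) act in glia, neural crest and cartilage, and SoxF proteins (Sox7, Sox17, Sox18) act in blood vessels and endoderm. From general knowledge of where each gene acts, Sox1, Sox2, Sox8, Sox9 and Sox21 were placed in a neural stem cell class. The classes were drawn up without any expression data and with earlier results of these data known. Sox7, Sox10, Sox14, Sox17 and Sox18 were placed in an other-lineage class. The classes cut across the subgroups SoxB2 and SoxE, so the subgroup roles alone do not give them.

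The promoters, 250 bases before to 50 bases after the start, were at hand for 5 of the 10 genes (RefSeq, GRCm38.p6). Sox14 is shown because its promoter lay inside peaks over its full length in all 4 libraries, and Sox2 because its promoter was bare in all 4. Sox1 is shown as the bare promoter with the peak nearest to it. CpG pairs are in capitals.
Sox14, chr9:99876121-99876420, minus strand: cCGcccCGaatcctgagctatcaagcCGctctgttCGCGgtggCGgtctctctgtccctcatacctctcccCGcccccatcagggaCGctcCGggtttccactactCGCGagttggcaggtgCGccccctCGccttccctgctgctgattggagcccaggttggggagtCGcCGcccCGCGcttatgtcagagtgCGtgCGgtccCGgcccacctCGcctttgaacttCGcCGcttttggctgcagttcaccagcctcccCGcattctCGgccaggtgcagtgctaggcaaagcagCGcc
Sox2, chr3:34649745-34650044, plus strand: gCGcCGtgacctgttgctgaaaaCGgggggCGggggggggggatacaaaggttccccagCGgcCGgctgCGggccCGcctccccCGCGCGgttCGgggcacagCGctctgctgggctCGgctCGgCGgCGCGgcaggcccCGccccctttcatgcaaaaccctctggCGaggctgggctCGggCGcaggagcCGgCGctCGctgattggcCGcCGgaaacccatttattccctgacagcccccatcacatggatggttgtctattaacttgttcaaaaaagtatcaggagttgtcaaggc
Sox1, chr8:12395269-12395568, plus strand: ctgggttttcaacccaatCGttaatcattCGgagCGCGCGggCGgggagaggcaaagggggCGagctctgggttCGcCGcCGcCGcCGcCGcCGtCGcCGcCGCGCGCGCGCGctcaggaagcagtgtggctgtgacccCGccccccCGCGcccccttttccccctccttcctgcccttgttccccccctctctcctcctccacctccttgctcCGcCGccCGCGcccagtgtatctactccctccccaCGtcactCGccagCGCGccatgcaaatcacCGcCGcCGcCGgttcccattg
The pair CG occurs 26 times in the Sox14 promoter, 27 times in that of Sox2 and 37 times in that of Sox1. The median of 32851 promoters of 300 bases was 7, and 94.6% held at least 1. At least as many pairs as in Sox14 were found in 16.9% of promoters, as in Sox2 in 15.5%, and as in Sox1 in 5.58%. GC content was 66.0%, 66.3% and 70.7%. The promoters of Sox21 and Sox8 had 22 and 21 pairs and were also bare in all 4 libraries. The marked promoter thus had fewer CpG pairs than the bare ones of Sox1 and Sox2, and more than the bare ones of Sox21 and Sox8.

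The 2 classes differed in H3K27me3 cover in every library, as a description only, because they were drawn up with results of these data known and place sister genes of SoxB2 and SoxE apart. Cover was measured as the percent of the bases within 2.5 kb of both annotated ends of a gene that lay in a deposited peak. Averaged over the 5 other-lineage genes it was 81.2% and 82.6% in del/del versus 81.6% and 85.3% in del/fl. Averaged over the 5 neural stem cell genes it was 0% in both del/del libraries and 0.365% and 0.456% in del/fl. All 5 other-lineage genes had a peak in these windows in all 4 libraries, as did 11.3% of 33069 autosomal genes. Of the neural stem cell genes, 4 had none in any library, as did 75.6% of autosomal genes, and Sox1 had one in del/fl only. The genes are single loci and not replicates, and the choice of classes may itself have fixed the split.

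**Figure D1:**
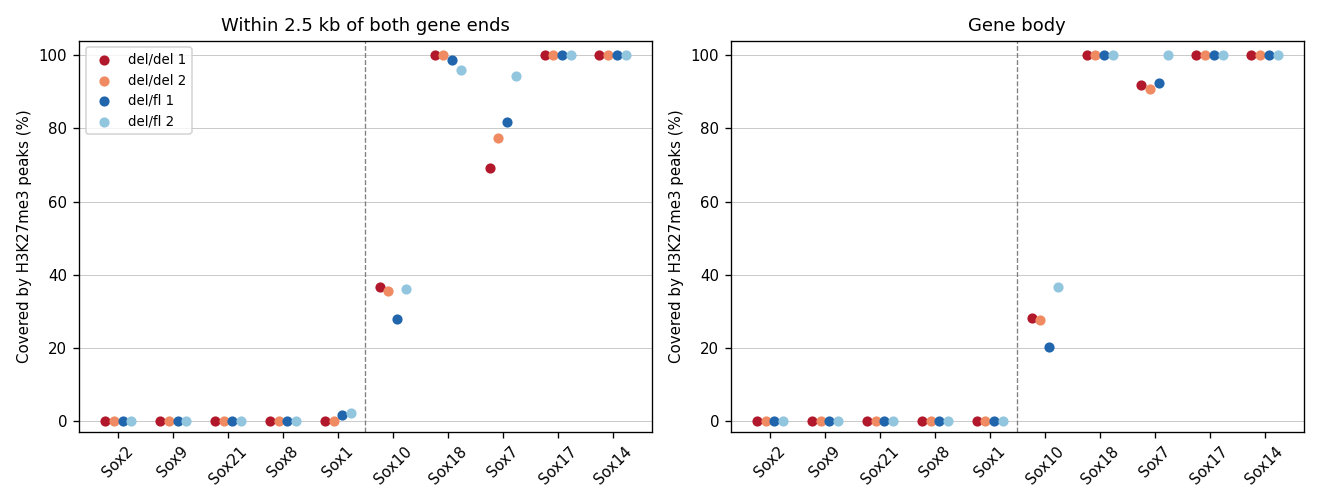
Percent of each Sox gene covered by H3K27me3 peaks, within 2.5 kb of both gene ends (left) and over the gene body (right), with 1 point per library and the neural stem cell class left of the dashed line. Points left of the line sit at or near 0%, and those right of it range from 27.9% to 100% at the gene ends.

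The difference between the class means was 81.2 and 82.6 percentage points in del/del versus 81.3 and 84.9 in del/fl. The genotypes overlapped, with means of 81.9 ± 0.990 and 83.1 ± 2.53 (SD, n = 2; exact two-sided permutation p = 0.667). With 2 libraries per genotype that test cannot give a p under 0.33. The small difference between genotypes had no stable sign: it was -1.18 points with all libraries and 0.61 without del/fl replicate 2. Over gene bodies the other-lineage class had 84.0% and 83.7% cover in del/del versus 82.6% and 87.3% in del/fl, and the neural stem cell class had 0% throughout. Within 100 kb of the genes, a window that includes the genes themselves, the other-lineage class averaged 9.11% and 11.2% cover in del/del versus 9.15% and 11.3% in del/fl. The neural stem cell class averaged 2.75% and 3.47% against 3.30% and 4.14% there, most of it at Sox1. By gene the classes overlapped in this window. Averaged over all libraries Sox1 had 13.7%, above Sox10 (2.71%) and Sox18 (3.58%). Sox1 was below Sox7 (14.6%), Sox14 (15.5%) and Sox17 (14.6%).

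Sox14, which directs neuronal identity in parts of the midbrain, thalamus and spinal cord, had the highest pileup and the longest mean domain of the 10. It lies on chromosome 9 at 99874106 to 99876170. Its body and both end windows were 100% covered in all 4 libraries, which is so at the ends of 257 autosomal genes (0.777%). The domain, meaning the peaks that touch the gene or its 2.5-kb flanks and those joined to them across gaps of up to 1 kb, was 22.8 and 23.6 kb long in del/del versus 24.1 and 25.5 kb in del/fl. Both del/del values lay below both del/fl values (exact permutation p = 0.33). Such a gap between genotypes in the same direction was found at 24.1% of the 3744 autosomal genes with a peak at their ends in every library, and the opposite at 10.3%. The domain was lopsided: it reached 14645 to 15958 bp beyond the end with the lower coordinate, which is downstream of this minus-strand gene, and 6065 to 7926 bp beyond its start. No other protein-coding gene lay inside, the nearest being Cldn18 at 157 kb.

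Pileup, the height of stacked tags in a peak, was scaled to 1000000 tags kept in each library. It is listed as a single value per peak. A pileup at gene ends is therefore that of the whole overlapping peaks, weighted by overlap, and not of the end windows alone. At the ends of Sox14 the scaled pileup was 2.18 and 2.32 in del/del versus 2.14 and 2.33 in del/fl, so the genotypes overlapped. The authors' fold enrichment over local background was 12.4 to 12.9. That pileup exceeded that of 95.1% of the 1508 marked autosomal genes with bodies of up to 10 kb, the size range of all 10 Sox genes.

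Sox17, a factor of definitive endoderm and of arterial endothelium, had a mark of similar extent. It lies on chromosome 1 at 4490928 to 4497426 and was 100% covered over its body and both ends in all 4 libraries. Its domain was 21.9 and 22.4 kb long in del/del versus 22.0 and 20.5 kb in del/fl, with overlapping genotypes. It reached 10669 to 11785 bp beyond the end with the higher coordinate and 3368 to 4368 bp beyond the other. The domain was thus lopsided too, but toward the higher coordinate, where that of Sox14 leaned toward the lower. Scaled pileup was 1.82 and 1.84 in del/del versus 2.05 and 2.23 in del/fl, lower in both del/del libraries (1.83 ± 0.0143 and 2.14 ± 0.127, SD, n = 2; exact permutation p = 0.33). That direction was found at 49.1% of the 3744 autosomal genes with a peak at their ends in every library, and the opposite at 3.55%.

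Sox18, which is needed for lymphatic vessel formation, was marked by a compact domain. It lies on chromosome 2 at 181669837 to 181671640, and its body was 100% covered in all libraries. The domain was 6.88 and 7.61 kb in del/del versus 6.84 and 6.54 kb in del/fl, and reached 2227 to 2860 bp past one end and 2504 to 2947 bp past the other. Its borders therefore fell close to the limits of the 2.5-kb windows, and cover of these was 100% and 100% in del/del versus 98.6% and 96.0% in del/fl. Both del/del values were higher (limma difference 2.70 points, SE 1.35, adjusted p = 0.624), which did not pass the test. Scaled pileup was 1.44 and 1.58 in del/del versus 1.39 and 1.77 in del/fl, with overlapping genotypes. The gene stands near others without the mark, as Tcea2, a transcription elongation factor gene 8656 bp away, and Gm29797, 10222 bp away, were 0% covered.

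Sox7, the other SoxF member and also an endothelial factor, was marked over most of its length, with a border that moved between libraries. It lies on chromosome 14 at 63943706 to 63950732. Cover within 2.5 kb of both ends was 69.3% and 77.3% in del/del versus 81.7% and 94.3% in del/fl, so both del/del libraries were lower. The end with the lower coordinate was 100% covered in every library, and all of the variation came from the other end, at 38.6% and 54.5% in del/del versus 63.4% and 88.5% in del/fl. limma gave a difference of -14.7 points (SE 6.54, adjusted p = 0.624), which did not pass the test. Body cover was 91.9% and 90.7% against 92.4% and 100%, and the domain was 12.9 and 17.5 kb against 15.7 and 17.9 kb. With only peaks of −log10 q of at least 5, end cover was 69.3% and 68.5% in del/del versus 69.7% and 94.3% in del/fl, so the distance between the genotypes then rested on del/fl replicate 2. The strand of Sox7, Sox10, Sox17 and Sox18 was not given in the tables used here, so which end is the start is not stated.

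**Figure D2:**
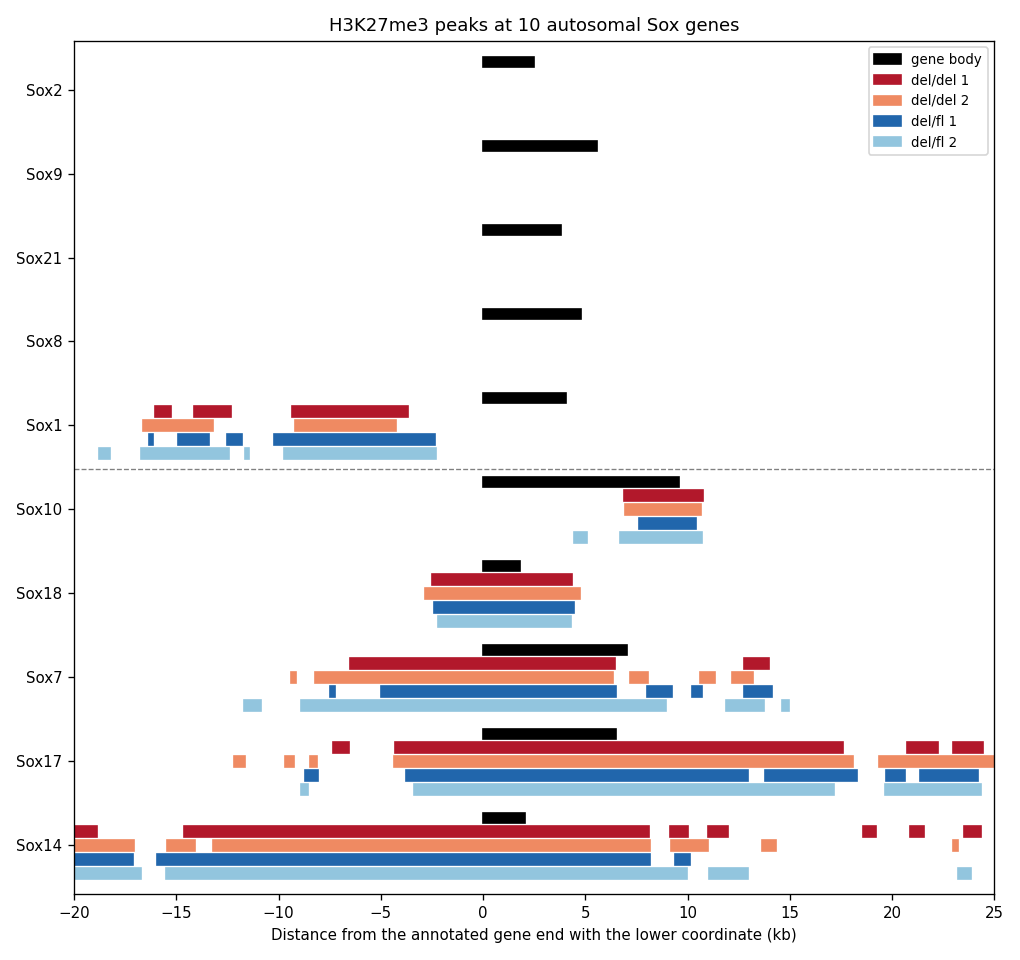
Peaks of the 4 libraries (coloured bars) around each Sox gene (black bar) by distance in kb from the gene end with the lower coordinate, with the neural stem cell class above the dashed line. Domains run over and past Sox14, Sox17, Sox18 and most of Sox7. Sox10 is marked at its right-hand end, with a further short peak inside its body in del/fl replicate 2. The nearest peak of Sox1 stops 2294 to 4258 bp short of the gene.

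Sox10, the master regulator of neural crest glia and of oligodendrocytes, was the least marked of its class. It lies on chromosome 15 at 79154913 to 79164490. Only the end with the higher coordinate carried the mark, with 73.2% and 71.3% cover in del/del versus 55.8% and 72.6% in del/fl, while the other end was 0% in all libraries. Over both ends this came to 36.6% and 35.6% against 27.9% and 36.3%, with overlapping genotypes (limma difference 4.03 points, SE 3.80, adjusted p = 0.633). The difference was -0.16 points without del/fl replicate 1. The body was 28.3% and 27.7% covered in del/del versus 20.4% and 36.7% in del/fl. The domain measured 3.87 and 3.72 kb in del/del versus 2.79 and 6.26 kb in del/fl, with 1 del/fl library below and 1 above both del/del libraries. Scaled pileup was 0.755 and 0.683 in del/del versus 0.819 and 0.986 in del/fl. The best −log10 q at the gene was 3.83 in del/del replicate 2, so with the stricter peaks that library had 0% there and the difference at the ends was -13.8 points. Polr2f, an RNA polymerase subunit gene 3138 bp from the unmarked end, was 0% covered.

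The extent and height of the mark ordered these 5 genes in nearly the same way. Mean scaled pileup over the 4 libraries was 2.24 at Sox14, 1.99 at Sox17, 1.54 at Sox18, 1.30 at Sox7 and 0.811 at Sox10. The order was the same within each of the 4 libraries, although over libraries the ranges of Sox14 and Sox17 overlapped, as did those of Sox18 and Sox7. Among marked autosomal genes with bodies of up to 10 kb, whose median was 0.720, these values exceeded 95.1%, 90.3%, 81.8%, 74.6% and 55.8% of genes. Mean domain length was 24.0 kb at Sox14, 21.7 kb at Sox17, 16.0 kb at Sox7, 6.97 kb at Sox18 and 4.16 kb at Sox10, and exceeded 86.2%, 84.9%, 79.8%, 53.9% and 32.7% of those genes. No 2 neighbours in this order overlapped over the 4 libraries. Sox18 and Sox7 thus changed places between the measures: Sox18 had the shorter domain, and its mean pileup was higher.

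**Figure D3:**
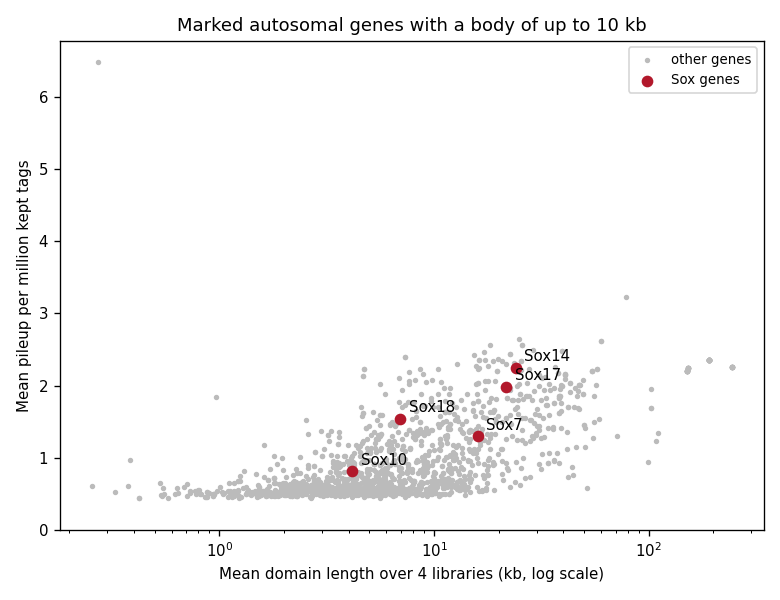
Mean scaled pileup (per 1000000 tags kept) against mean domain length (kb, log scale) over 4 libraries, for the 1508 autosomal genes with a body of up to 10 kb and a peak at their ends in every library (grey) and the 5 marked Sox genes (red). Sox14 and Sox17 lie toward the upper right, and Sox10 lies near the median pileup of 0.720.

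Pileup and domain length were then set side by side between the genotypes. Both del/del libraries lay below both del/fl libraries in scaled pileup at 3 of the 5 genes, Sox7, Sox10 and Sox17, and above them at 0. Beside the 49.1% of all marked autosomal genes, a share of this size was common in these libraries. The mean over the 5 genes was 1.48 and 1.52 in del/del versus 1.54 and 1.76 in del/fl (exact permutation p = 0.33). Without scaling by tags kept it was 20.9 and 19.4 against 20.5 and 20.8, and the genotypes overlapped. By gene, unscaled pileup was still lower in both del/del libraries at Sox7, Sox10 and Sox17. At Sox14 it was higher in both, at 30.7 and 29.75 in del/del versus 28.46 and 27.53 in del/fl. At Sox18 the genotypes overlapped. No share over other genes is at hand for unscaled pileup. Tags kept numbered 14064030 and 12819919 in del/del versus 13288499 and 11793402 in del/fl, and the part of depth in the scaled difference was not tested. Domain length was lower in both del/del libraries at Sox14, higher in both at Sox18, and overlapped at Sox7, Sox10 and Sox17. Among the 3744 marked autosomal genes 24.1% were lower in this way and 10.3% higher, so 1 of 5 each way is near the background. Summed over the 5 genes it came to 68374 and 74865 bp in del/del versus 71491 and 76704 bp in del/fl, so the genotypes overlapped (exact permutation p = 0.667). With Sox1 counted, the del/fl sums were 79362 and 84140 bp and both lay above del/del (exact permutation p = 0.33).

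**Figure D4:**
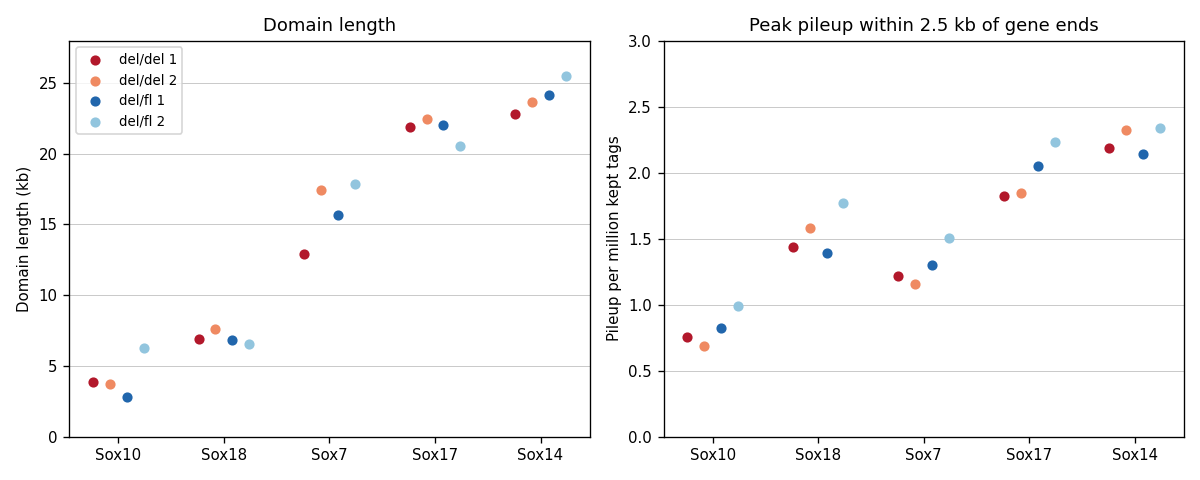
Domain length in kb (left) and scaled peak pileup (per 1000000 tags kept) (right) at the 5 marked Sox genes, with 1 point per library. At Sox7, Sox10 and Sox17 both del/del points lie below both del/fl points in pileup, and Sox14 is highest in both panels.

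Sox1, a SoxB1 gene of the neural plate, was bare over its body in all 4 libraries but had a peak close by. It lies on chromosome 8 at 12395519 to 12399555, and the nearest peak lay upstream of its start. The gap between that peak and the gene was 3692 and 4258 bp in del/del versus 2335 and 2294 bp in del/fl. The 2.5-kb limit of the end window fell between these values, which is what gave Sox1 a cover above 0% in del/fl and 0% in del/del. The peak itself was present in every library, 5672 and 4944 bp long in del/del versus 7871 and 7436 bp in del/fl. Its far edge lay 9364 and 9202 bp from the gene in del/del versus 10206 and 9730 bp in del/fl, so in del/del the peak stopped short of its del/fl extent on both sides.

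The gap averaged 3975 ± 400 bp in del/del versus 2315 ± 29.0 bp in del/fl (SD, n = 2; exact permutation p = 0.33). At 21.2% of the 1784 autosomal genes with a bare body and a peak within 10 kb in every library, both del/del gaps were the wider ones, and at 10.4% both were the narrower ones. Scaled pileup of the Sox1 peak was 0.584 and 0.509 in del/del versus 0.653 and 0.710 in del/fl. In tags it was 8.22 and 6.53 versus 8.68 and 8.37, above the median listed peak of each library (7.64 and 6.29 versus 7.41 and 6.26) and below the pileup at the 5 marked Sox genes. Its −log10 q was 2.00 to 3.58, and it was not among the stricter peaks in any library. The lncRNA gene Sox1ot, which overlaps Sox1, was 11.1% and 10.2% covered over its body in del/del versus 14.55% and 16.3% in del/fl. Cover within 100 kb of Sox1 was 10.5% and 13.4% against 13.7% and 17.3%.

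The other 4 genes of the neural stem cell class stood clear of the mark. Sox2, the pluripotency and neural stem cell factor on chromosome 3 at 34649995 to 34652461, had distant peaks on both sides. The nearest was 133 to 708 kb below it and 766 to 1018 kb above it, and Sox2ot, the lncRNA gene that contains it, was 0% covered. Sox9, needed for gliogenesis and cartilage, on chromosome 11 at 112782210 to 112787757, had its nearest peaks 2299.7 to 2300.3 kb below and 448 to 652 kb above. Neither Sox2 nor Sox9 thus had a peak within 100 kb in any library.

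Sox21, a SoxB2 factor on chromosome 14 at 118233233 to 118237030, had its nearest peak 43.2 kb below in del/fl replicate 1 and 232 to 233 kb below in the other libraries, and 201 to 898 kb above. It belongs to the same subgroup as the fully covered Sox14. Sox8, a glial and testis factor on chromosome 17 at 25565893 to 25570686, had peaks 60.7 to 67.0 kb below and 134 to 145 kb above. The lower ones lay toward Sstr5, a somatostatin receptor gene 68.6 kb away that was 52.6% and 73.6% covered in del/del versus 52.8% and 56.8% in del/fl. Lmf1, the neighbour 8487 bp on the other side, was bare. A bare window says only that no peak was listed there: expression was not measured here.

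Tested over all genes, no Sox gene passed the test between genotypes. limma compared cover at the ends of the 9131 genes of the autosomes and X with a peak there in any library. It called 0 at an adjusted p of 0.05 (0% of genes tested). Before adjustment 517 had p under 0.05 with a higher and 382 with a lower mean in del/del, 899 in all. Fitted on the 8064 autosomal genes alone, limma also called 0, and 437 had p under 0.05 before adjustment. Of the 10 Sox genes, 6 were tested, and Sox1 entered only through its del/fl values. Of these 6, Sox10 and Sox18 had higher means in del/del, Sox1 and Sox7 lower ones, and Sox14 and Sox17 equal ones, and 0 were called. The median difference was 0 points, against -0.965 points over the 8064 autosomal genes tested. Both del/del libraries lay below both del/fl libraries at Sox1 and Sox7, which was so at 15.5% of autosomal genes tested, and above them at Sox18, which was so at 6.36%. Without del/fl replicate 1 limma called Sox1 (adjusted p = 9.35e-06) and Sox18 (adjusted p = 2.44e-06), and without del/fl replicate 2 it called both again (adjusted p = 7.03e-06 and 1.12e-07). In those fits the del/del values of each gene were equal and a single del/fl library remained. At Sox14 and Sox17 cover is at its upper limit, so a rise there could not be seen. Over gene bodies limma called 0 of 9331 genes of the autosomes and X (0%). Before adjustment 602 had p under 0.05 with a higher and 304 with a lower mean in del/del. In that fit Sox7 differed by -4.93 points (SE 3.47, adjusted p = 0.657) and Sox10 by -0.52 points (SE 7.28, adjusted p = 1). Fitted on the 8292 autosomal genes alone, limma called 0 over bodies, and 377 had p under 0.05 before adjustment. In body cover both del/del libraries lay below both del/fl libraries at Sox7 and above them at 0 Sox genes. Of 8292 autosomal genes 14.7% lay below in this way and 6.74% above.

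Of 9 further Sox genes, 7 had no peak at their ends in any library, as did 75.6% of autosomal genes. The 7 were Sox4, Sox5, Sox6, Sox11, Sox12, Sox13 and Sox15. Sox4, Sox11 and Sox12 form the SoxC subgroup of immature neurons. Sox30, a testis gene on chromosome 11, had 6.04% and 6.98% cover in del/del versus 0% and 8.47% in del/fl. Sox3, the third SoxB1 gene and the one that lies on X, differed from Sox1 and Sox2 in carrying the mark: its ends were 76.7% and 100% covered in del/del versus 68.1% and 78.1% in del/fl. In end cover the genotypes overlapped at Sox3 (limma difference 15.3 points, adjusted p = 0.624). Its domain was longer in both del/del libraries, at 71431 and 71742 bp versus 31381 and 18775 bp in del/fl. That gap was not tested, and no share over X-linked genes is at hand for it. The lists do not separate the active from the inactive copy of Sox3.

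Partner genes of the Sox factors were counted in the same windows. Of the 8064 autosomal genes tested, 3030 had a higher and 4651 a lower mean in del/del, so lower means were the more common ones overall. Of 19 neural stem cell genes, 2 had a peak in any library. The others, with Nes, Hes1, Hes5, Vim, Fabp7 and Notch1 among them, had none, as did 75.6% of autosomal genes. The marked ones were Pou3f1, a neural POU factor with 88.5% and 100% cover in del/del versus 80.5% and 100% in del/fl, and Pax6, a regulator of cortical progenitors with 9.01% and 16.7% against 8.70% and 22.1%. Of the 12 defining markers of neural stem cells, Pax6 alone had a peak. A peak in every library was found at 5 of 5 neuronal markers, 4 of 4 neural crest, 5 of 6 endoderm, 3 of 7 endothelial, 1 of 4 oligodendrocyte, 1 of 6 fibroblast and 0 of 5 microglial and blood markers, and at 11.3% of all autosomal genes. The neuronal marker Syp lies on X, so that share does not cover it. Eomes, also counted as a neuronal marker, is in the longer endoderm list below as well.

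Around the SoxF genes, 8 of 15 endothelial genes and 10 of 14 endoderm genes had a peak in all 4 libraries. Etv2, an early regulator of vessel and blood fate, had 76.2% and 84.0% cover in del/del versus 82.0% and 100% in del/fl. Kdr, the VEGF receptor gene, had 15.2% and 35.3% against 21.2% and 46.3%. The endothelial markers Cdh5, Pecam1, Tek and Tie1 were at 0% in all libraries, unlike Sox7, Sox17 and Sox18. Of the 8 with a peak, 1 had a higher and 5 a lower mean in del/del, with 0 called and a median of -3.34 points. In the endoderm list Foxa1 and Foxa2, pioneer factors of endoderm, were 100% covered throughout like Sox17. Gata4 had 57.0% and 55.6% in del/del versus 64.0% and 85.0% in del/fl, and Mixl1 had 47.9% and 36.1% against 53.6% and 54.2%. Of the 10 endoderm genes with a peak, 2 had higher and 5 lower means, with 0 called and a median of -0.29 points.

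All 9 interneuron genes listed around Sox14 had a peak in all libraries, and 4 of them were fully covered throughout, Gata2 among them. Tal1, a partner of Gata2 in GABAergic neurons, had 58.8% and 62.0% cover in del/del versus 64.6% and 75.2% in del/fl, and Helt had 99.4% and 88.3% against 99.4% and 100%. Means were higher at 2 and lower at 3, with 0 called and a median of 0 points. Around Sox10, 7 of 13 neural crest and oligodendrocyte genes had a peak in all libraries. Tfap2a was 100% covered throughout, and Pax3 had 50% and 50% against 58.9% and 61.9% (limma adjusted p = 0.292). Myrf, the myelin regulatory factor, had a peak only in del/del replicate 2, at 11.8%. In that list 2 means were higher and 6 lower, with 0 called and a median of -0.28 points.

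Around Sox9, 2 of 6 cartilage genes had a peak in all libraries, and Col9a1 and Hapln1 were bare in all 4 like Sox9. Col2a1, the cartilage collagen gene that Sox9 activates, had 50% and 58.7% cover in del/del versus 50% and 52.2% in del/fl. Col11a2 had 7.25% and 0% against 9.34% and 7.29%. Means were higher at 2 genes and lower at 1, with 0 called and a median of 0.96 points.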

How the data were processed

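H3K27me3 ChIP-seq was analysed in 4 libraries, each with a whole-cell extract as control, 8 samples in all. Per the submitters' processing notes, bcl2fastq and Bowtie 0.12.9 were used with build mm10. Per the file headers, MACS2 2.1.0.20140616 called broad peaks per library at a q threshold of 0.05, kept 1 tag per position and scaled by down-sampling. The listed peaks reach past that threshold. The largest q of a listed peak was 0.0919 and 0.0969 in del/del versus 0.0918 and 0.0983 in del/fl. The pileup the authors deposited is a coverage signal, the deposited fold enrichment is a ratio to local background, and the deposited p-value and q-value are −log10. These per-peak values are the authors'. Peaks numbered 32971 and 39982 in del/del versus 36934 and 45566 in del/fl, covering 1.34% to 1.93% of autosomes.

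From them, percent cover was computed with Python 3.11.15, numpy 2.4.6 and pandas 2.3.3, drawn with matplotlib 3.10.9, and compared with limma 3.58.1 in R 4.3.3 (variance trend, robust, Benjamini-Hochberg over all genes with a peak in any library). Gene coordinates and names came from RefSeq tables of GRCm38.p6, the build mm10. The interval code and limma were tested on simulated data. Other values had exact permutation tests. Alternatives were stricter peaks (−log10 q of at least 5), other windows, gaps and scales, other classes, autosomal genes alone, a replicate block and leaving out each library. The text names all 10 Sox genes, the other Sox genes and, of each partner list, the 2 genes with the largest difference and the 1 with the highest cover, plus genes at 0 or fully covered and defining markers. Those additions were chosen after their values were seen. The members, classes and lists were chosen with earlier results of these data known. Other marks and allele-specific signal were not analysed here.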

Additional observations from a re-analysis of the deposited data

How the results depend on the processing

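Of the 10 Sox genes, 5 kept a peak at their ends in all libraries, also after dropping any single library, 5 with windows of 1 kb, 6 with windows of 5 kb, 4 with stricter peaks, and 1 of the 5 with a known start when start sites alone were used. The mean distance between the class means was 82.5 points, and 79.9 with stricter peaks. It was 84.9 with windows of 1 kb, 66.9 with 5 kb, 84.8 with peaks merged across up to 3 kb and 94.6 without Sox10. It was 81.7 to 82.9 when each library was left out. At start sites alone it was 99.5, but Sox14 is the only other-lineage gene with a known start, so that value compares other genes.

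Between genotypes, the distance between classes differed by -1.18 points, and by 2.65 with windows of 5 kb, 0.93 at start sites alone and 0.61 without del/fl replicate 2 (range -2.97 to 0.61 over left-out libraries). The other-lineage mean differed by -1.59 points, by 0.28 with windows of 5 kb, by 0 at start sites alone, where Sox14 is its 1 member, and by 0.24 without del/fl replicate 2 (range -3.43 to 0.24). The neural stem cell mean differed by -0.41 points, and by 0 with stricter peaks and with windows of 1 kb, in which Sox1 has no peak (range -0.46 to -0.37). The domain sum over 10 genes, which counts Sox1 as 0 bp in del/del because of the 2.5-kb limit, differed by -10132 bp, but by -1018 bp with stricter peaks (exact permutation p = 1). The sum without Sox1 overlapped between genotypes and had no alternatives run. Mean scaled pileup differed by -0.15, by -0.04 without del/fl replicate 2, and overlapped unscaled (exact permutation p = 1).

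limma called 0 genes in all at gene ends, and 111 with stricter peaks, 222 after division by each library's covered autosomal percent, 21 and 93 with windows of 1 and 5 kb, 29 at start sites alone, 32 with merged peaks and 251 to 1504 without 1 library. No Sox gene was among these, other than Sox1 and Sox18 without either del/fl library (0 to 2 Sox genes over left-out libraries). Over bodies it called 95 genes with stricter peaks, 9 without the variance trend and 339 to 1423 without 1 library, with 0 Sox genes. Gene-end cover of Sox10 changed sign with stricter peaks (-13.8) and without del/fl replicate 1 (range -0.16 to 8.23 over left-out libraries), and its body cover without del/fl replicate 2 (range -8.70 to 7.65) and after division by covered percent (2.93), as did body cover of Sox7 (3.17). The causes were not tested. With the replicate number as a block limma called 0 genes at ends and 0 over bodies. Whether same-numbered libraries share a line is not stated. Replicate 2 had more peaks and more autosomal cover than replicate 1 in both genotypes, and deviations of same-numbered libraries correlated by 0.111 across 8064 autosomal genes. A fit of all genes without a filter on cover could not be made, because most variances are 0. Listed peaks start at 5 to 6 stacked tags, so weaker marking was not detectable.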
